A study of Mus musculus with 8 samples.

Results

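Matrix metalloproteinases, ADAM and ADAMTS proteases and their tissue inhibitors were followed in cells sorted from the neonatal mouse cochlea. Members were the protein-coding genes whose symbol starts with *Mmp*, *Adam* or *Adamts* and a number, the ADAMTS-like genes and *Timp1* to *Timp4*, provided that they reached 1 CPM (counts scaled to a fixed total of gene counts per library) in at least 2 libraries. Of 83 such genes, 54 were members: 13 of 23 MMPs, 14 of 32 ADAMs, 19 of 19 ADAMTS genes, 5 of 5 ADAMTS-like genes and 3 of 4 TIMPs. Of all 21408 protein-coding genes, 14610 passed the same level filter. RNA-seq was performed on cells of *LFng-GFP* BAC transgenic mice (B6;FVB-Tg(Lfng-EGFP)HM340Gsat/Mmucd) at postnatal day 1 (P1) and postnatal day 6 (P6), sorted without culture or treatment. At each age, the cells with the strongest GFP fluorescence (GFP+) and those without it (GFP-) were collected, which made 4 groups with 2 libraries each, and nothing in the labels says that the libraries of a group came from separate litters, so p-values measure only the spread between these libraries. The transgene labels most supporting cell types (border, inner phalangeal, outer pillar and Deiters' cells) and not the inner pillar cells, while GFP- cells are a mixture of many other cell types of the dissected tissue. Dimly fluorescent cells entered neither group. At P1 the medial structures were separated from the lateral wall, whereas at P6 these outer structures, the stria included, were only partially removed, so age and dissection cannot be told apart. In sorted mixtures, fewer cells of a type and less RNA per cell cannot be told apart either.

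MMPs and ADAMTS enzymes are secreted or membrane-bound zinc proteases that cut collagens, proteoglycans and other matrix proteins, whereas most catalytic ADAMs sit in the plasma membrane and shed the outer domains of receptors and ligands, Notch among them. They are made with a prodomain that keeps them inactive, and TIMPs bind the active site of the free enzyme. ADAMTS-like proteins resemble the ADAMTS tail and lack the protease domain. In the postnatal cochlea the tectorial and basilar membranes are assembled and remodelled while supporting cells take on their adult shape.

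The libraries held from 17769024 to 67695039 gene counts, so that a count of 3 equals 0.0443 to 0.169 CPM. The 6 supporting cell markers (*Sox2*, *Prox1*, *Lfng*, *Fgfr3*, *Jag1* and *Hes5*) summed to between 5085 and 8242 CPM in the GFP+ libraries and to between 139 and 254 CPM in the GFP- libraries. Hair cell markers (*Myo6*, *Myo7a*, *Pou4f3*, *Atoh1*, *Otof* and *Pvalb*) summed to 689 and 792 CPM in P1 GFP+ and 466 and 432 CPM in P1 GFP- libraries. At P6 these sums were 413 and 495 CPM in GFP+ and 346 and 384 CPM in GFP- libraries. Hair cell transcripts were thus present in the GFP+ libraries. P6 GFP+ replicate 2 stood apart. Over 751 genes that were at least 16 times higher in GFP- than in GFP+ cells at P1, it exceeded P6 GFP+ replicate 1 by a median of 1.61 on the log2 scale, whereas the P1 GFP+ replicates differed by -0.04. Markers of several other cell types were higher in it than in replicate 1, such as the summed fibrocyte and mesenchyme markers (2030 against 1333 CPM, with 4792 to 9385 CPM in the GFP- libraries), endothelial markers (169 against 40.2 CPM, with 90.4 to 112 CPM in GFP- libraries), osteoblast markers (139.5 against 37.8 CPM, with 23.4 to 989 CPM in GFP- libraries), macrophage markers (86.8 against 48.2 CPM, with 175 to 462 CPM in GFP- libraries) and Schwann cell and glia markers (1902 against 943 CPM, with 559 to 1230 CPM in GFP- libraries). At P1 the same sums in the GFP+ libraries were 251 and 278 CPM, 20.0 and 22.7 CPM, 1.65 and 1.66 CPM, 17.6 and 20.3 CPM, and 352 and 398 CPM. Within these lists, *Lum* and *Sox10* went the other way between the P6 GFP+ replicates, while the other markers were higher in replicate 2. *Lum* was at 656 against 765 CPM, with 680 and 545 CPM in P6 GFP- libraries. *Sox10* was at 306 against 340 CPM, with 87.6 and 95.1 CPM in P6 GFP- libraries. Every marker of the fibrocyte and endothelial lists was at 1 CPM or more in all libraries, and all 4 neutrophil markers stayed under 1 CPM in all libraries. Members that had been lower in GFP+ cells at P1 were mostly higher in P6 GFP+ replicate 2, 30 of 34 of them, by a median ratio of 2.23, against a median of 1.02 between the P1 GFP+ replicates. Most other members were higher in it too, by less: 8 of 11 that had been higher in GFP+ cells at P1 (median ratio of 1.41) and 7 of 8 not called at P1 (1.25). The share of all genes that were higher in this library was not counted. For named results that moved the most without this library, the value without it is given beside the result.

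**Figure D1:**
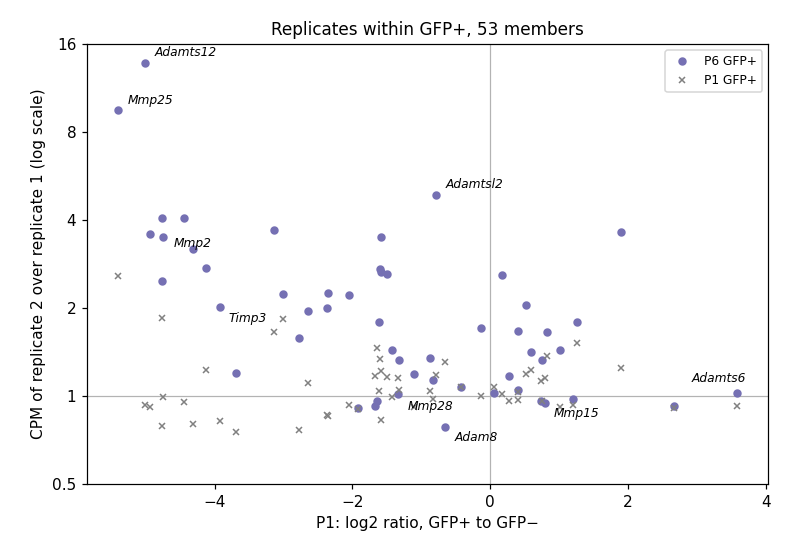
Ratio of CPM in replicate 2 to replicate 1 within the GFP+ fraction (log scale) against the P1 log2 ratio of GFP+ to GFP- cells, for 53 members. Filled points are P6 GFP+ libraries and crosses are P1 GFP+ libraries; *Adamts12* reached a P6 ratio of 13.8, whereas *Mmp28*, *Mmp15* and *Adamts6* stayed between 0.944 and 1.03.

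The level filter left out 29 family genes. *Timp4* came closest, with 0.859 and 1.02 CPM in P6 GFP- cells and 0.169 to 0.554 CPM elsewhere, and the other 28 genes reached 1 CPM in no library, the closest being *Mmp12*, a macrophage elastase, with a highest value of 0.895 CPM. At the inner edge of the filter, *Mmp13*, *Mmp25* and *Adam5* were under 1 CPM in every GFP+ library and entered through GFP- libraries alone, so a difference between the fractions was built into them. *Mmp13* reached 1 CPM in the P6 GFP- libraries alone, which built in its rise with age in GFP- cells as well. *Mmp13* was at 0 counts in both P1 GFP+ libraries and could be tested in 3 of the 5 comparisons.

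Per kilobase of exon, the scale on which genes can be compared with each other, *Mmp14* was the highest member in GFP+ cells at both ages. *Mmp14* encodes a membrane-anchored collagenase that also activates pro-MMP2. Its P1 GFP+ libraries were at 141 and 151 CPM per kilobase, followed by *Adam10* at 55.6 and 53.3, *Timp2* at 46.2 and 45.7, *Adamts6* at 42.5 and 39.3 and *Mmp15* at 30.8 and 35.5 CPM per kilobase. *Adam10* and *Timp2* did not overlap, nor did *Timp2* and *Adamts6*, whereas *Mmp15* and *Adamts2* (27.3 and 33.4 CPM per kilobase) overlapped. In P6 GFP+ cells, *Mmp14* (158 and 162), *Timp2* (57.3 and 82.5), *Mmp2* (30.8 and 108), *Mmp15* (70.1 and 66.1) and *Adam10* (51.2 and 60.1 CPM per kilobase) led, and *Timp2* and *Mmp2* each overlapped with *Adam10*, whereas both libraries of *Mmp15* lay above those of *Adam10*. GFP- cells had another order, led at both ages by *Mmp2*, *Mmp14* and *Timp2*. *Mmp2* was at 391 and 365 CPM per kilobase in P1 GFP- cells and at 620.1 and 508 in P6 GFP- cells. *Timp3* came next in GFP- cells, with 52.9 and 47.7 CPM per kilobase at P1 and 61.4 and 55.5 at P6, and at P1 it overlapped with *Adam10* (47.6 and 49.6 CPM per kilobase).

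**Figure D2:**
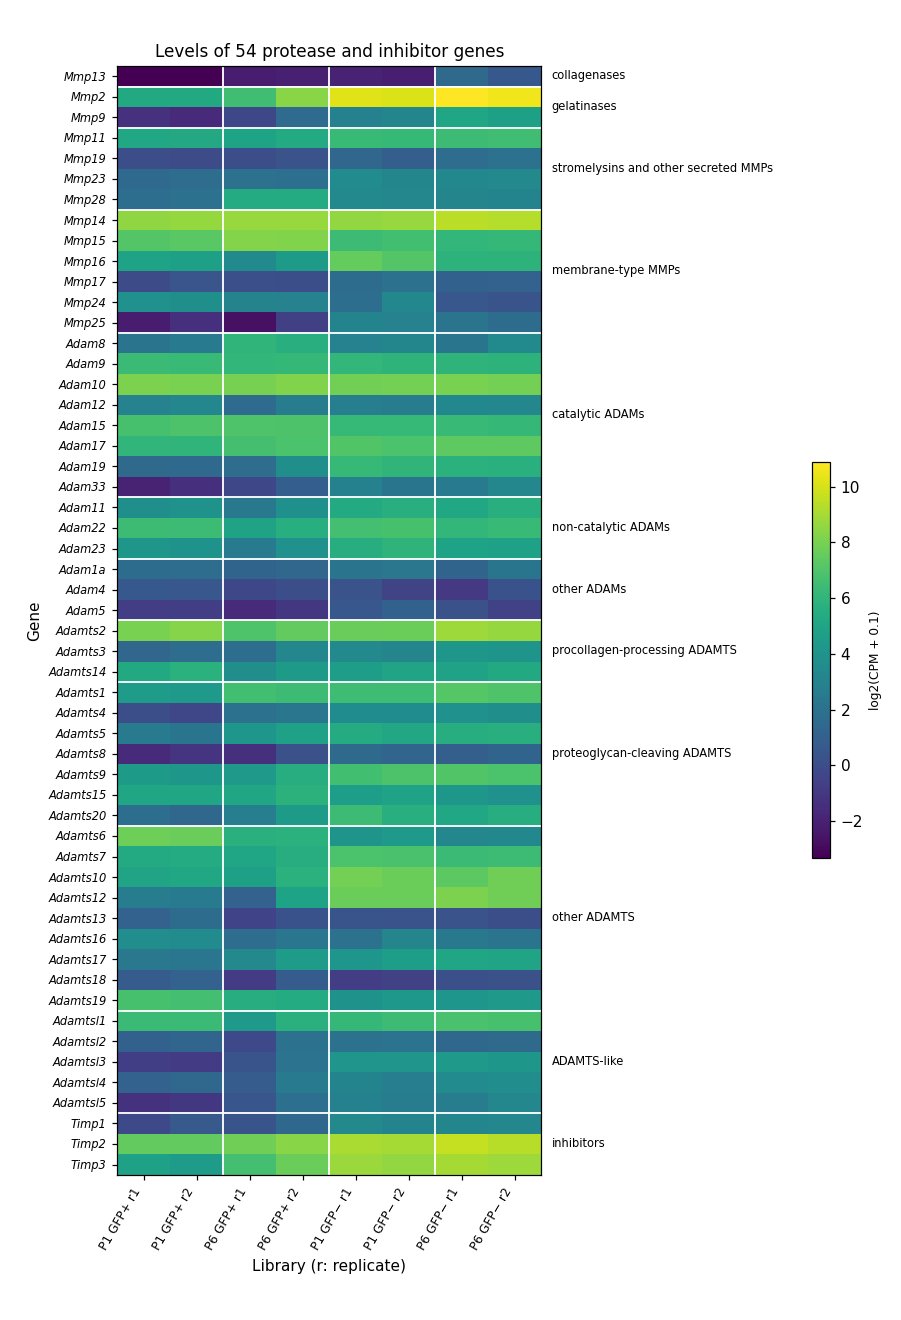
Level of each of the 54 members in each of the 8 libraries, as log2(CPM + 0.1), grouped by role. Most rows are brighter in the 4 GFP- libraries on the right, while *Adamts6*, *Adamts19* and *Mmp15* are brighter in the 4 GFP+ libraries on the left and *Mmp28* and *Adam8* in the P6 GFP+ libraries alone.

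At P1, most members were lower in GFP+ than in GFP- cells. Of 53 members tested with edgeR's quasi-likelihood test, 34 were lower in GFP+ cells at an adjusted p-value below 0.05 and 11 were higher, while among all 18682 genes tested 28.1% were lower and 25.5% higher. Without the 3 members that passed the filter through GFP- libraries alone, 32 of 51 were lower. The median log2 ratio of GFP+ to GFP- was -1.43 over the members and 0.01 over all genes. With the study's criteria (p and adjusted p below 0.01 and a fold change above 4), 18 members were lower, or 17 without the same 3 members, against 11.4% of all genes. Higher by these criteria were 2 members, *Adamts6* and *Adamts19*, against 6.46% of all genes. Without P1 GFP+ replicate 2, 36 of the 45 calls remained and 6 members were called higher.

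The picture at P6 was similar in direction, with 30 of 54 members lower and 8 higher in GFP+ cells, against 17.9% and 15.5% of all 18294 genes tested. Without the same 3 members, 28 of 51 were lower. The median log2 ratio was -1.31 over the members and -0.02 over all genes. The study's criteria were passed by 3 lower members (*Mmp13*, *Mmp9* and *Adamts10*) and by 5 higher members (*Adam8*, *Mmp24*, *Adamts6*, *Mmp28* and *Mmp15*), against 3.1% and 4.88% of all genes. The filter had built in the place of *Mmp13* below GFP- cells, and without it 2 lower members passed. A fit without 1 P6 library takes its spread from the other group alone. All calls remained without either P6 GFP+ library, and most were lost without either P6 GFP- library. The former does not test the calls against the library that stood apart, since it removes the spread between the P6 GFP+ libraries. Over both ages, 24 members were lower in GFP+ cells at each age and 5 were higher at each age (*Adamts6*, *Adamts19*, *Mmp15*, *Adam15* and *Adamts15*). Of the 5, *Adamts6* and *Mmp15* kept their calls whichever library was left out, and the others lost a call in some fits. A further 4 members were called in opposite directions at the 2 ages: *Mmp28* and *Adam8* moved from lower to higher, and *Adamts2* and *Adamts14* from higher to lower. The P1 call of *Adam8* was lost without either P1 GFP+ library, and the P6 call of *Adamts14* without either P6 GFP- library. The share of all genes with such joint patterns was not counted, so these numbers are a description.

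With age, 13 of 51 members rose and 7 fell in GFP+ cells, against 12.1% and 8.31% of all 17213 genes tested, and 4 members (*Mmp28*, *Adam8*, *Timp3* and *Adamts1*) rose and 0 fell by the study's criteria, against 1.63% and 0.93%. In GFP- cells, 15 of 54 rose and 5 fell, or 14 and 5 of 53 without *Mmp13*, whose rise the filter built in, against 11.3% and 7.87% of all 18920 genes. By the study's criteria *Mmp9* rose, *Mmp13* aside, and 0 members fell, where 1.43% and 0.418% of all genes met them. At an unadjusted p below 0.05 in edgeR, 9 members fell in GFP+ and 7 in GFP- cells, of which 0 and 1 fell more than 4-fold. DESeq2 called 8 and 6 lower at an adjusted p below 0.05. The shares of all genes at these settings were not counted. The 5 comparisons share libraries, so they are not independent of each other. Rising in both fractions were *Adam17*, *Adamts1*, *Adamts5*, *Adamts17* and *Mmp2*, and falling in both were *Adamts6* and *Mmp24*. The call of *Mmp24* in GFP+ cells was lost without P1 GFP+ replicate 1 or 2 (log2 changes of -0.66 and -0.82). That of *Adamts17* in GFP+ cells was lost without P1 GFP+ replicate 2 (1.75). In GFP- cells the call of *Adamts17* was lost without P6 GFP- replicate 1 or 2 (0.68 and 0.835), and that of *Mmp2* without P6 GFP- replicate 1 (0.59). The interaction of age and fraction, which tests whether the log2 ratio of GFP+ to GFP- differed between P1 and P6 over all 8 libraries, called 8 members with a higher ratio at P6 and 4 with a lower one, against 3.6% and 2.79% of all 19233 genes, and 2 and 1 by the study's criteria, against 0.66% and 0.598%. Of these 12, *Mmp28* and *Adamts2* were called with each of the 8 libraries left out in turn. No call was lost without a P6 GFP+ library, but such a fit lacks the spread between the P6 GFP+ libraries. It therefore does not test the calls against the library that stood apart.

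**Figure D3:**
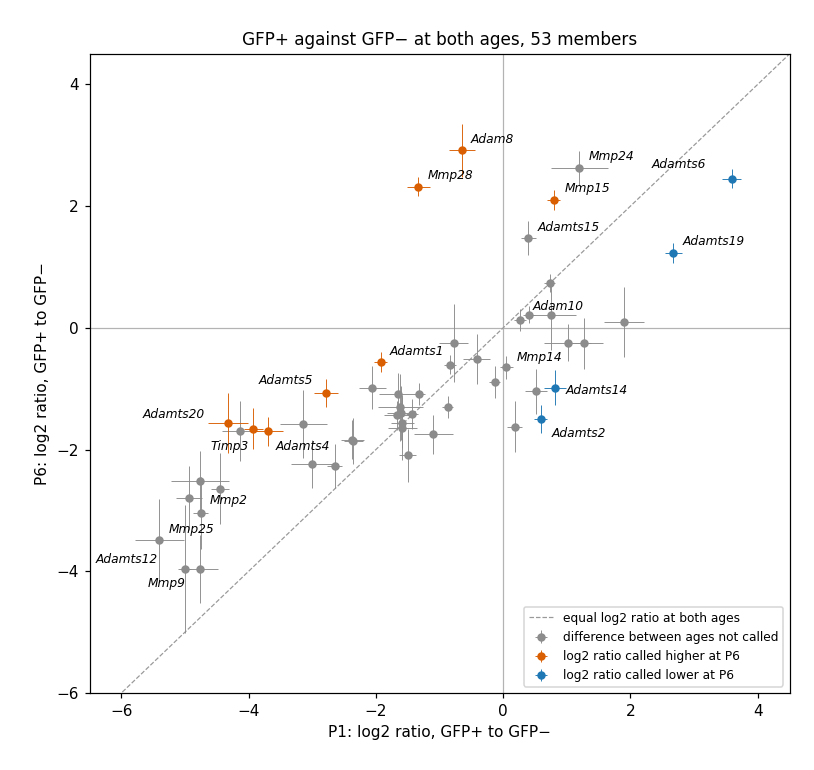
Log2 ratio of GFP+ to GFP- cells at P1 and at P6 for 53 members, with standard errors from edgeR (2 libraries per group), both axes linear in log2. Orange and blue points are the 8 and 4 members called in the interaction of age and fraction; *Mmp28* and *Adam8* lie in the upper left field (lower at P1, higher at P6) and *Adamts2* and *Adamts14* in the lower right field.

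Of the collagenases and gelatinases, no gene was higher in GFP+ cells. *Mmp2* encodes the gelatinase that cuts denatured and type IV collagen. It was at 39.7 and 39.5 CPM in P1 GFP+ cells and at 1187 and 1109 CPM in P1 GFP- cells, and at P6 at 93.7 and 327 CPM in GFP+ and 1884 and 1544 CPM in GFP- cells. GFP- libraries were above all GFP+ libraries at both ages, and the 2 P6 GFP+ libraries lay far apart. The log2 ratio of GFP+ to GFP- was -4.75 ± 0.12 (SE, n = 2 libraries per group, adjusted p = 9.99e-06 by edgeR) at P1 and -3.04 ± 0.60 (adjusted p = 0.0148) at P6, or -4.17 at P6 without P6 GFP+ replicate 2. *Mmp2* rose with age in GFP+ cells by 2.49 ± 0.57 (adjusted p = 0.0383), by 1.37 without P6 GFP+ replicate 2, with an adjusted p of 0.0949 without P1 GFP+ replicate 2. *Mmp9*, the other gelatinase, known from neutrophils and osteoclasts, was at 0.305 and 0.241 CPM in P1 GFP+, 7.49 and 9.16 CPM in P1 GFP-, 0.732 and 2.98 CPM in P6 GFP+ and 33.5 and 26.8 CPM in P6 GFP- cells. Its P6 log2 ratio of GFP+ to GFP- was -3.96 ± 0.56 (adjusted p = 0.00605), or -5.34 without P6 GFP+ replicate 2. It rose in GFP- cells by 2.05 ± 0.19 on the log2 scale (adjusted p = 0.00107). Beside it in GFP- cells, the 4 osteoclast markers summed to 67.3 and 73.3 CPM at P1 and to 115 and 103 CPM at P6. Most of this sum was *Ctsk*, while *Acp5* went from 1.06 and 0.792 CPM to 13.9 and 12.1 CPM and *Calcr* and *Oscar* stayed under 1 CPM in all libraries. The osteoblast markers went from between 23.4 and 34.7 to between 973 and 989 CPM, and the 6 macrophage markers from between 175 and 223 to between 418 and 462 CPM, and the part of these lists in the rise of *Mmp9* was not tested. *Mmp13*, a collagenase of cartilage and bone, was at 0.158 and 0.127 CPM in P1 GFP- and at 2.85 and 1.39 CPM in P6 GFP- cells, with 0.113 and 0.134 CPM in P6 GFP+ cells, which is given as a description since the filter chose it through the P6 GFP- libraries.

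The other secreted MMPs were mostly lower in GFP+ cells. *Mmp11* (30.7 to 91.5 CPM), *Mmp19* (0.884 to 3.77 CPM) and *Mmp23* (2.77 to 11.3 CPM, made as a membrane-anchored precursor) were lower in GFP+ cells at both ages, with log2 ratios from -0.87 to -1.75. The *Mmp19* call at P1 was lost without P1 GFP+ replicate 1 or 2 and that at P6 without P6 GFP- replicate 1 or 2 (adjusted p from 0.0919 to 0.147), and the P6 call of *Mmp23* without P6 GFP- replicate 1 or 2 (adjusted p = 0.0965 and 0.101). *Mmp28* encodes epilysin, a secreted MMP of epithelia, and differed from them. It was at 3.40 and 3.94 CPM in P1 GFP+ and at 10.3 and 9.54 CPM in P1 GFP- cells, and at 42.8 and 43.3 CPM in P6 GFP+ and at 8.64 and 8.51 CPM in P6 GFP- cells. The groups did not overlap at either age, and their order turned. The log2 ratio of GFP+ to GFP- went from -1.34 ± 0.18 (adjusted p = 0.00163) to 2.32 ± 0.16 (adjusted p = 0.000997), and the interaction of 3.64 ± 0.22 had an adjusted p of 0.000267. In GFP+ cells *Mmp28* rose by 3.65 ± 0.17 (adjusted p = 0.00181), a fold of 12.5 and the largest rise of the 51 members tested, and in GFP- cells the log2 change was -0.02 ± 0.17 (adjusted p = 0.952). Its exons share 465 bases (12.003% of their length), with a gene on the other strand, and the library kit does not mark strand. Such sharing of over 10% of exon length with a gene on the other strand was also found for *Mmp19* (23.1%), *Timp3* (21.3%), *Adam15* (20.5%), *Mmp24* (13.6%) and *Adamts9* (11.02%), and for *Adam1a* with a gene on the same strand (24.9%).

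Among the catalytic ADAMs, *Adam8* also went from lower to higher in GFP+ cells. It encodes a membrane sheddase known from myeloid cells. GFP+ libraries were at 4.34 and 5.66 CPM at P1 and at 63.8 and 49.99 CPM at P6, and GFP- libraries at 7.84 and 8.91 CPM at P1 and at 4.44 and 10.6 CPM at P6. P6 GFP+ cells were thus above all other libraries. The log2 ratio of GFP+ to GFP- was -0.65 ± 0.20 (adjusted p = 0.037) at P1 and 2.91 ± 0.43 (adjusted p = 0.00691) at P6. The P1 ratio was -0.48 and -0.81 without P1 GFP+ replicate 1 and 2, and its call was lost in each of these fits. The rise in GFP+ cells was 3.61 ± 0.23 (adjusted p = 0.00263). The interaction was 3.56 ± 0.51 (adjusted p = 0.00739), or 3.39 with an adjusted p of 0.051 without P1 GFP+ replicate 1. The 6 macrophage markers summed to 20.3 and 17.6 CPM in P1 GFP+, 48.2 and 86.8 CPM in P6 GFP+ and 462 and 418 CPM in P6 GFP- cells, and their part in the rise was not tested.

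Promoters are shown for the 3 proteases whose interaction was called toward GFP+ cells and that ended above GFP- cells (*Mmp28*, *Adam8* and *Mmp15*). That of *Mmp13*, which reached 1 CPM in P6 GFP- cells alone, is shown beside them. The 250 bases before the RefSeq transcript start (GRCm38.p6) are written 5′ to 3′ on the gene's strand. Capitals mark GC boxes (GGGCGG on either strand) and, in *Mmp13*, an AP-1 site (TGANTCA, its own reverse complement), and no 2 marked matches overlap.
Mmp28, chr11:83463041-83463290, minus strand: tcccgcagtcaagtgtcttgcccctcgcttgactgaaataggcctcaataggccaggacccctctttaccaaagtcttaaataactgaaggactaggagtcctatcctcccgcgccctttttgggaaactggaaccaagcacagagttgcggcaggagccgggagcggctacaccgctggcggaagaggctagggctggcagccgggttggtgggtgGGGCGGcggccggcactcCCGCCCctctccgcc
Adam8, chr7:139992563-139992812, minus strand: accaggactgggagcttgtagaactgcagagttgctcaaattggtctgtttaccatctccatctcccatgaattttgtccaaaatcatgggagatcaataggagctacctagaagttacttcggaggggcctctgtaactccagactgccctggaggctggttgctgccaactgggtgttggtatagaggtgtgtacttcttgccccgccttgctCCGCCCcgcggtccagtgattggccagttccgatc
Mmp15, chr8:95352046-95352295, plus strand: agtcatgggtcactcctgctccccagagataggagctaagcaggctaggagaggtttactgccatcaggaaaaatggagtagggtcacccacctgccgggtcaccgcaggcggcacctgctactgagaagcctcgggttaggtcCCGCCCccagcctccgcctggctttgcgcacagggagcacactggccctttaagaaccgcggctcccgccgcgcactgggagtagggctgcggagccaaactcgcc
Mmp13, chr9:7272264-7272513, plus strand: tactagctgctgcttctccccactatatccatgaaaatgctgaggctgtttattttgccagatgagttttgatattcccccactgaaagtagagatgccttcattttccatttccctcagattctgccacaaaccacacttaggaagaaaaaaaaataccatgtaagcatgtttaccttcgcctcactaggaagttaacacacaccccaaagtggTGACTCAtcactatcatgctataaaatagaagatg
*Mmp28* holds 2 GC boxes, and *Adam8* and *Mmp15* hold 1 each, with none in *Mmp13*. RefSeq promoters were given for 33 of the 54 members, 36 in all, and 66.7% of them held a GC box and 5.56% an AP-1 match, against 32.7% and 6.75% of all 32851 promoters of the same length. Members had passed the level filter, whereas the promoters of all genes were taken whatever their level. The shares therefore do not compare like with like. The letters are a description of these windows and not of binding.

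Of the other catalytic ADAMs, *Adam17* and *Adam33* rose with age in GFP+ cells and *Adam12* and *Adam17* in GFP- cells. *Adam10*, the sheddase of Notch receptors, was at 235 to 296 CPM in all 8 libraries, with log2 ratios of GFP+ to GFP- of 0.27 ± 0.09 (adjusted p = 0.0505) at P1 and 0.12 ± 0.18 (adjusted p = 0.639) at P6. *Adam17*, the sheddase of TNF and EGF receptor ligands, was lower in GFP+ cells at both ages (log2 ratios of -0.83 and -0.61, the latter with an adjusted p of 0.275 and 0.215 without P6 GFP- replicate 1 and 2), with 65.0 and 63.6 CPM in P1 GFP+, 129 and 117 CPM in P1 GFP-, 103 and 117 CPM in P6 GFP+ and 166 and 167 CPM in P6 GFP- cells. It rose with age in both fractions, by 0.86 ± 0.12 (adjusted p = 0.0108) in GFP+ and 0.63 ± 0.11 (adjusted p = 0.00996) in GFP- cells; in GFP+ cells the adjusted p was 0.078 and 0.16 without P1 GFP+ replicate 1 and 2, and in GFP- cells it was 0.0631 without P6 GFP- replicate 1. *Adam15* was higher in GFP+ cells at both ages, with 107 and 120.1 CPM against 74.1 and 72.5 CPM at P1 and 124 and 119 CPM against 75.5 and 69.4 CPM at P6, and log2 ratios of 0.73 ± 0.09 (adjusted p = 0.000864) and 0.74 ± 0.15 (adjusted p = 0.0177, or 0.114 and 0.2 without P6 GFP- replicate 1 and 2). *Adam9* and *Adam12* were higher in GFP+ cells at P1 (log2 ratios of 0.41 and 0.52) and were not called at P6 (0.21 and -1.04, the latter -1.64 without P6 GFP+ replicate 2). Both P1 calls were lost without P1 GFP+ replicate 1 or 2 (adjusted p = 0.12 and 0.0632 for *Adam9*, 0.128 and 0.275 for *Adam12*). *Adam12* rose in GFP- cells by 0.77 ± 0.18 (adjusted p = 0.0295, or 0.218 and 0.112 without P6 GFP- replicate 1 and 2). *Adam19* and *Adam33* stood at the other end, with log2 ratios of -4.45 and -4.76 at P1 and -2.64 and -2.52 at P6, or -3.97 and -3.33 without P6 GFP+ replicate 2. *Adam33* was at 0.153 and 0.281 CPM in P1 GFP+, 7.52 and 4.55 CPM in P1 GFP-, 0.732 and 1.81 CPM in P6 GFP+ and 5.56 and 9.45 CPM in P6 GFP- cells. Its rise in GFP+ cells was 2.72 ± 0.62 (adjusted p = 0.0384, or 0.215 and 0.155 without P1 GFP+ replicate 1 and 2), or 1.96 without P6 GFP+ replicate 2, and its P6 ratio had an adjusted p of 0.0927 without P6 GFP- replicate 2. *Adam19* had 2.77 to 13.2 CPM in GFP+ and 50.9 to 72.6 CPM in GFP- libraries, and its P6 adjusted p was 0.0506 and 0.0645 without P6 GFP- replicate 1 and 2. *Adam11*, *Adam22* and *Adam23*, which lack an active protease site and include the LGI receptor of synapses, were all lower in GFP+ cells at P6, with log2 ratios of -2.09, -0.89 and -1.56, of which the first and the third were -2.93 and -2.41 without P6 GFP+ replicate 2. The P6 call of *Adam11* was lost without P6 GFP- replicate 2 (log2 ratio of -1.91). Those of *Adam22* (-0.92 and -0.82) and *Adam23* (-1.45 and -1.63) were lost without P6 GFP- replicate 1 or 2. *Adam23* was at 17.9 and 14.7 CPM in P1 GFP+, 45.4 and 60.5 CPM in P1 GFP-, 5.40 and 14.3 CPM in P6 GFP+ and 30.1 and 28.0 CPM in P6 GFP- cells. It fell in GFP- cells by 0.67 on the log2 scale (adjusted p = 0.029, or 0.109 and 0.153 without P6 GFP- replicate 1 and 2). *Adam22* also fell with age in GFP+ cells, from 86.7 and 86.6 CPM to 28.7 and 49.0 CPM, a log2 change of -1.07 ± 0.25 (adjusted p = 0.0394), with an adjusted p of 0.0606 and 0.131 without P1 GFP+ replicate 1 and 2. *Adam1a*, *Adam4* and *Adam5* stayed between 0.225 and 4.94 CPM in all libraries, and of the 3 only *Adam5* was called once, as lower in P1 GFP+ cells (-1.61). The level filter had built in the direction of this call, and the call was lost without P1 GFP+ replicate 1 or 2 (log2 ratios of -1.60 and -1.61).

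Membrane-type MMPs split between the fractions. *Mmp14* was at 365 and 393 CPM in P1 GFP+ and at 375 and 412 CPM in P1 GFP- cells, groups that overlapped, and at 411 and 419.8 CPM in P6 GFP+ and at 674 and 623 CPM in P6 GFP- cells. It rose in GFP- cells by 0.91 ± 0.13 on the log2 scale (adjusted p = 0.00543), while the change in GFP+ cells was 0.22 ± 0.13 (adjusted p = 0.26). The P6 log2 ratio of GFP+ to GFP- was -0.65 ± 0.19 (adjusted p = 0.0476), a call lost without P6 GFP- replicate 1 (adjusted p = 0.361) or 2 (adjusted p = 0.216). *Mmp15*, a membrane-type relative of *Mmp14*, was higher in GFP+ cells at both ages and increasingly so. Its levels were 134 and 155 CPM in P1 GFP+, 84.8 and 94.2 CPM in P1 GFP-, 305 and 288 CPM in P6 GFP+ and 66.8 and 70.9 CPM in P6 GFP- cells. The log2 ratio was 0.79 ± 0.10 (adjusted p = 0.00116) at P1 and 2.10 ± 0.17 (adjusted p = 0.00137) at P6, and the interaction of 1.30 ± 0.18 (adjusted p = 0.00702) was 1.21 with an adjusted p of 0.062 without P1 GFP+ replicate 1. *Mmp24* was at 14.6 and 13.6 CPM in P1 GFP+ and 3.38 and 9.71 CPM in P1 GFP- cells, and at 7.99 and 7.83 CPM in P6 GFP+ and 1.36 and 1.18 CPM in P6 GFP- cells. Its P6 log2 ratio was 2.63 ± 0.28 (adjusted p = 0.00288), and it fell with age in GFP- cells by 2.18 ± 0.49 on the log2 scale (adjusted p = 0.0246), with an adjusted p of 0.123 and 0.129 without P6 GFP- replicate 1 and 2. The neuron markers *Tubb3*, *Nefl* and *Snap25* differed between the P1 GFP- replicates in the same direction as *Mmp24*, with sums of 80.6 and 276 CPM, and were at 67.5 and 47.1 CPM in P6 GFP- cells; their part in the fall was not tested. *Mmp16*, *Mmp17* and *Mmp25* were lower in GFP+ cells at P1 (log2 ratios of -2.37, -1.65 and -5.40). *Mmp25*, a membrane-type MMP known from leukocytes, was at 0.109 and 0.281 CPM in P1 GFP+, 8.52 and 7.67 CPM in P1 GFP-, 0.0563 and 0.536 CPM in P6 GFP+ and 4.36 and 3.15 CPM in P6 GFP- cells. In GFP+ libraries it was near the floor of 3 counts, and the level filter had built in its difference between the fractions. In turn, *Mmp16* fell in GFP- cells from 184 and 134 CPM to 57.1 and 58.2 CPM (30.6, 26.4, 10.7 and 21.6 CPM in the P1 and P6 GFP+ libraries), by 1.27 ± 0.16 on the log2 scale (adjusted p = 0.00308).

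**Figure D4:**
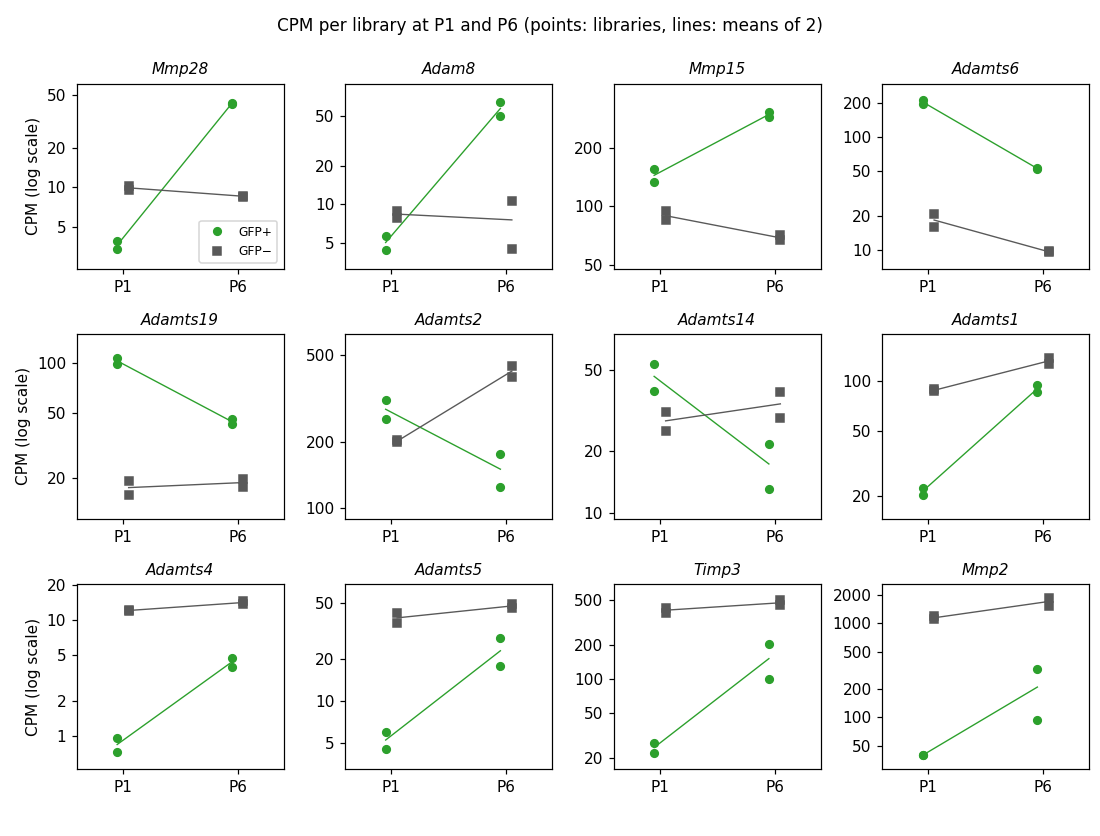
CPM of 12 members in every library at P1 and P6, on log axes whose range differs between panels. Green circles are GFP+ libraries, grey squares GFP- libraries, and lines join the means of 2 libraries; *Mmp28* in GFP+ cells goes from 3.40 and 3.94 to 42.8 and 43.3 CPM, and *Adamts2* crosses in the other direction.

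Procollagen-processing ADAMTS enzymes remove the amino-terminal propeptide of fibrillar collagens. *Adamts2* was at 255 and 312 CPM in P1 GFP+ and at 200.1 and 205 CPM in P1 GFP- cells, and at 125 and 177 CPM in P6 GFP+ and at 449 and 399 CPM in P6 GFP- cells. The order of the fractions turned, as the gene fell in GFP+ cells by 0.82 ± 0.20 on the log2 scale (adjusted p = 0.0432) and rose in GFP- cells by 1.26 ± 0.13 (adjusted p = 0.00144), and it was the member called in opposite directions with age in the 2 fractions. The GFP+ fall had an adjusted p of 0.0879 and 0.282 without P1 GFP+ replicate 1 and 2. The interaction of -2.10 ± 0.26 (adjusted p = 0.00413) remained without any 1 library. *Adamts14* had the same order, with 39.3 and 53.8 CPM in P1 GFP+, 25.1 and 31.3 CPM in P1 GFP-, 13.1 and 21.6 CPM in P6 GFP+ and 29.1 and 39.2 CPM in P6 GFP- cells. Its log2 ratio went from 0.82 ± 0.17 (adjusted p = 0.00904) to -0.98 ± 0.28 (adjusted p = 0.045). The P1 call was lost without P1 GFP+ replicate 2 (log2 ratio of 0.62). The P6 call was lost without P6 GFP- replicate 1 or 2 (log2 ratios of -1.13 and -0.77). The interaction of -1.81 ± 0.36 (adjusted p = 0.0263) was called in 2 of 8 fits that left out 1 library, those without a P6 GFP+ library. *Adamts3* was lower in GFP+ cells at P1 (2.49 and 3.33 against 10.2 and 8.59 CPM) and rose in GFP- cells by 1.04 ± 0.18 (adjusted p = 0.00918), with an adjusted p of 0.0927 without P6 GFP- replicate 1.

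Proteoglycan-cleaving ADAMTS enzymes, which cut aggrecan, versican and related proteoglycans, were mostly lower in GFP+ cells. At P1, 6 of 7 were lower and at P6 4 of 7, against 28.1% and 17.9% of all genes. The 4 at P6 were *Adamts1*, *Adamts4*, *Adamts5* and *Adamts9*. Each of their P6 calls was lost without P6 GFP- replicate 1 and also without replicate 2 (log2 ratios from -0.44 to -1.96). The interaction was called for 4 of 7 in the direction of a higher ratio at P6, against 3.6% of all genes. *Adamts1* rose in GFP+ cells from 22.6 and 20.4 CPM to 94.5 and 85.9 CPM and in GFP- cells from 86.9 and 89.4 CPM to 139 and 127 CPM. The groups did not overlap, and the log2 changes were 2.16 ± 0.14 (adjusted p = 0.00273) and 0.79 ± 0.11 (adjusted p = 0.00464), with an interaction of 1.35 ± 0.19 (adjusted p = 0.00691, or 0.059 without P1 GFP+ replicate 2). *Adamts5*, the main aggrecanase of mouse cartilage, was at 5.93 and 4.54 CPM in P1 GFP+, 42.3 and 36.2 CPM in P1 GFP-, 17.7 and 27.9 CPM in P6 GFP+ and 46.4 and 49.1 CPM in P6 GFP- cells. Its rise in GFP+ cells was 2.20 ± 0.29 (adjusted p = 0.0104, or 0.052 without P1 GFP+ replicate 2), against 0.48 ± 0.12 (adjusted p = 0.0392) in GFP- cells, where the call was lost without P1 GFP- replicate 2 (adjusted p = 0.0922) or P6 GFP- replicate 1 or 2 (adjusted p = 0.168 and 0.148). *Adamts4* rose in GFP+ cells from 0.96 and 0.723 CPM to 3.94 and 4.72 CPM, by 2.43 ± 0.32 (adjusted p = 0.0106, or 0.109 without P1 GFP+ replicate 2), and had 11.9 to 14.5 CPM in GFP- libraries. *Adamts20* went from 3.40 and 2.73 CPM to 6.58 and 21.0 CPM in GFP+ cells, by 2.24 ± 0.56 (adjusted p = 0.0478), by 1.2025 without P6 GFP+ replicate 2, with an adjusted p of 0.169 without P1 GFP+ replicate 2. In GFP- libraries it was at 84.8 and 49.4 CPM at P1 and at 36.0 and 45.4 CPM at P6. *Adamts15* was the member of this group higher in GFP+ cells at both ages, with 32.2 and 33.2 against 24.1 and 29.3 CPM at P1 and 33.7 and 56.0 against 17.9 and 14.3 CPM at P6. Its log2 ratios were 0.40 ± 0.12 (adjusted p = 0.0384) and 1.47 ± 0.28 (adjusted p = 0.0134). The P1 call was lost without P1 GFP+ replicate 1 or 2 or P1 GFP- replicate 1 (log2 ratios of 0.40, 0.41 and 0.24). The P6 call was lost without P6 GFP- replicate 2 (log2 ratio of 1.30). *Adamts8* and *Adamts9* were lower in GFP+ cells at P1 (log2 ratios of -3.14 and -2.36), and *Adamts9* also at P6 (-1.86, or -2.53 without P6 GFP+ replicate 2, with an adjusted p of 0.0507 and 0.0509 without P6 GFP- replicate 1 and 2).

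The highest ratios of GFP+ to GFP- at P1 belonged to *Adamts6* and *Adamts19*. *Adamts6*, at chromosome 13 of NCBIM37 (105077953 to 105284843, plus strand), was at 214 and 197 CPM in P1 GFP+ and at 15.99 and 20.7 CPM in P1 GFP- cells, and at 51.9 and 53.3 CPM in P6 GFP+ and at 9.45 and 9.71 CPM in P6 GFP- cells. The log2 ratio was 3.59 ± 0.15 (adjusted p = 2.28e-05), a fold of 12.03, at P1 and 2.45 ± 0.16 (adjusted p = 0.000893) at P6. The gene fell with age in GFP+ cells by 1.87 ± 0.12 on the log2 scale (adjusted p = 0.00273) and in GFP- cells by 0.75 ± 0.18 (adjusted p = 0.0291, or 0.166 and 0.145 without P6 GFP- replicate 1 and 2). *Adamts19* was at 108 and 98.8 CPM in P1 GFP+ and at 45.8 and 42.4 CPM in P6 GFP+ cells, while all 4 GFP- libraries lay between 15.7 and 19.8 CPM. Its log2 ratio went from 2.67 ± 0.13 (adjusted p = 3.5e-05) to 1.23 ± 0.16 (adjusted p = 0.00535), and it fell in GFP+ cells by 1.14 ± 0.13 on the log2 scale (adjusted p = 0.0075). The interactions were -1.15 ± 0.21 for *Adamts6* (adjusted p = 0.0175, over 0.05 in 4 of 8 fits without 1 library, each without a P1 GFP+ or a P6 GFP- library) and -1.46 ± 0.21 for *Adamts19* (adjusted p = 0.00715, or 0.0537 without P1 GFP+ replicate 1). Lower members of this group included *Adamts10*, known to bind fibrillin-1, with 27.0 to 52.8 CPM in GFP+ and 157 to 242 CPM in GFP- libraries. *Adamts12* was at 6.11 and 5.70 CPM in P1 GFP+, 208 and 203 CPM in P1 GFP-, 2.14 and 29.6 CPM in P6 GFP+ and 266 and 227 CPM in P6 GFP- cells. Its log2 ratio was -5.01 at P1 and -3.96 (adjusted p = 0.0356) at P6, or -6.83 at P6 without P6 GFP+ replicate 2, and the P6 call was lost without P6 GFP- replicate 1 or 2 (adjusted p = 0.0661 and 0.0791). Its change with age in GFP+ cells was 1.51 ± 1.04 (adjusted p = 0.335), and it turned to -1.35 (adjusted p = 0.000145) without P6 GFP+ replicate 2. *Adamts7* was lower in GFP+ cells at both ages (-1.32 and -1.09, the latter with an adjusted p of 0.0644 and 0.0713 without P6 GFP- replicate 1 and 2), and *Adamts17* at P1 (-2.05). *Adamts13*, which cuts von Willebrand factor, and *Adamts18* were higher in GFP+ cells at P1 at 1.68 to 3.17 CPM, against 0.501 to 1.19 CPM in GFP- cells (log2 ratios of 1.26 and 1.89), a call lost for *Adamts13* without P1 GFP+ replicate 2 (adjusted p = 0.122). *Adamts16* fell with age in GFP+ cells from 12.4 and 11.4 CPM to 3.32 and 4.75 CPM, by 1.46 ± 0.25 on the log2 scale (adjusted p = 0.0201, or 0.123 and 0.128 without P1 GFP+ replicate 1 and 2).

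ADAMTS-like genes, whose products bind fibrillin and other microfibril proteins, were lower in GFP+ cells or not called. *Adamtsl3* had the lowest P1 log2 ratio of the 5, -4.94 ± 0.21 (adjusted p = 2.19e-05), with 0.524 and 0.482 CPM in P1 GFP+, 17.0 and 16.8 CPM in P1 GFP-, 1.18 and 4.22 CPM in P6 GFP+ and 20.0 and 18.5 CPM in P6 GFP- cells. *Adamtsl5* was lower at both ages (-4.13 and -1.69), *Adamtsl2* and *Adamtsl4* at P1 (-0.78 and -1.59), and *Adamtsl1* at P6 (-1.63), after 82.1 and 83.1 against 70.5 and 86.3 CPM at P1. Without P6 GFP+ replicate 2 the P6 ratios were -2.60 for *Adamtsl5* and -2.44 for *Adamtsl1*, and without either P6 GFP- library both calls were lost (adjusted p from 0.0942 to 0.234), as was that of *Adamtsl2* without either P1 GFP+ library (adjusted p = 0.201 and 0.121). *Adamtsl4* rose with age in GFP- cells by 0.87 ± 0.19 (adjusted p = 0.0208, or 0.12 without either P6 GFP- library).

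All 3 TIMPs among the members were lower in GFP+ cells at both ages. *Timp2*, which also takes part in the activation of pro-MMP2 by MMP14, was at 179.8 and 178 CPM in P1 GFP+, 533 and 504 CPM in P1 GFP-, 223 and 322 CPM in P6 GFP+ and 785 and 658 CPM in P6 GFP- cells. Its log2 ratio of GFP+ to GFP- was -1.43 ± 0.10 (adjusted p = 9.52e-05) at P1 and -1.42 ± 0.25 (adjusted p = 0.0112, or 0.0705 without P6 GFP- replicate 1) at P6. *Timp2* rose in GFP- cells by 0.67 ± 0.15 (adjusted p = 0.0254, or 0.123 without P6 GFP- replicate 1), and the change in GFP+ cells was 0.69 ± 0.19 (adjusted p = 0.0577). *Timp3*, which is bound to the matrix and also inhibits ADAM17 and aggrecanases, was at 27.4 and 22.5 CPM in P1 GFP+, 430.5 and 388 CPM in P1 GFP-, 101 and 204 CPM in P6 GFP+ and 500.4 and 452 CPM in P6 GFP- cells. GFP+ libraries were below GFP- libraries at both ages, by less at P6. The log2 ratio was -3.93 ± 0.15 (adjusted p = 1.78e-05) at P1 and -1.66 ± 0.34 (adjusted p = 0.0175) at P6, or -2.22 at P6 without P6 GFP+ replicate 2, with an adjusted p of 0.065 and 0.0621 without P6 GFP- replicate 1 and 2. The rise in GFP+ cells was 2.69 ± 0.35 (adjusted p = 0.00991), or 2.13 without P6 GFP+ replicate 2, and the interaction of 2.26 ± 0.40 (adjusted p = 0.0171) lost its call in 4 of 8 fits without 1 library, each without a P1 GFP+ or a P6 GFP- library. The exons of *Timp3* share 1733 bases with *Syn3* on the other strand. *Timp1* was low, with 0.785 and 1.45 CPM in P1 GFP+, 10.1 and 8.51 CPM in P1 GFP-, 1.18 and 2.64 CPM in P6 GFP+ and 9.11 and 9.26 CPM in P6 GFP- cells, and its log2 ratios were -3.01 ± 0.32 (adjusted p = 0.000575) and -2.24 ± 0.40 (adjusted p = 0.0115, or 0.0556 and 0.0649 without P6 GFP- replicate 1 and 2), the latter ratio being -2.94 without P6 GFP+ replicate 2.

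A list of 50 further genes of the system (activators, convertases, sheddase partners, other peptidases, inhibitors and substrates) was also mostly lower in GFP+ cells. At P1, 32 of 48 tested were lower and 6 higher in GFP+ cells, against 28.1% and 25.5% of all genes, and at P6, 33 of 50 were lower and 5 higher, against 17.9% and 15.5%. With age, 14 of 45 rose and 5 fell in GFP+ cells, against 12.1% and 8.31%, and 19 of 49 rose and 3 fell in GFP- cells, against 11.3% and 7.87%. The inhibitors *Reck*, *Tfpi2* and *A2m* and the endocytic receptor *Lrp1* were lower in GFP+ cells at P6, a call lost for *Tfpi2* without P6 GFP+ replicate 2 (adjusted p = 0.0767), and all but the untested *Tfpi2* were lower at P1. Higher in GFP+ cells were *Prss23*, a secreted serine protease (log2 ratios of 5.26 ± 0.20 at P1 and 3.04 ± 0.29 at P6), and *Tectb*, a tectorial membrane glycoprotein (4.78 ± 0.55 and 2.59 ± 0.38), and the tetraspanins *Tspan14* and *Tspan33*, partners of ADAM10, and *Plg*, which encodes plasminogen, were also higher at both ages. *Plg* was at 1.18 and 1.61 CPM in P1 GFP+ cells and under 1 CPM in all other libraries, with log2 ratios of 4.13 and 3.06. *Fbn2*, which encodes fibrillin-2, was higher at P1 (0.72). The lowest P1 ratios belonged to *Fap* (-5.64 ± 0.24), a fibroblast peptidase, and to *Tspan10* (-5.63 ± 0.44), and the lowest at P6 to *Acan* (-3.51 ± 0.77) and *Ctsk* (-3.48 ± 0.52), which were at -5.39 and -4.58 without P6 GFP+ replicate 2. Of the substrates, *Acan*, which encodes aggrecan, rose in GFP- cells from 9.76 and 12.01 CPM to 133 and 149 CPM and in GFP+ cells from 0.284 and 0.402 CPM to 3.32 and 21.4 CPM, by 5.28 ± 1.02 on the log2 scale, or 3.44 without P6 GFP+ replicate 2. The peptidase gene *Htra1* rose in GFP+ cells by 4.64 ± 0.57 (adjusted p = 0.00855), with 20.5 and 54.4 CPM in the P6 libraries, or by 3.84 without P6 GFP+ replicate 2. *Fbn2* fell in GFP+ cells by 1.55 ± 0.22 on the log2 scale (adjusted p = 0.0122), and *Tspan33* by 1.25 ± 0.21 (adjusted p = 0.019). In GFP- cells, *Vcan*, which encodes versican, fell by 1.91 ± 0.19 (adjusted p = 0.00142) and *Mme* by 1.25 ± 0.17 (adjusted p = 0.00368), while *Tectb* rose by 3.31 ± 0.50 (adjusted p = 0.00598).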

How the data were processed

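RNA-seq reads of 8 libraries of sorted cochlear cells had been aligned and counted by the authors. Their processing notes name TopHat 1.4.0, HTSeq, DESeq 1.9.2 and build mm9. The deposited files hold raw counts per Ensembl gene, with no normalization, and 5 summary lines that were left out of library sizes (64.7% to 76.2% of each total fell on genes). Gene symbols, biotypes, coordinates and exon lengths came from the NCBIM37 annotation. CPM were counts scaled to the total of gene counts, and levels were compared between genes only per kilobase of exon.

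Counts were tested with edgeR 4.0.16 in R 4.3.3 (quasi-likelihood test, TMM factors, genes with a minimum count of 10 and a minimum total of 15). Each comparison was fitted on its own 4 libraries and the interaction on all 8. P-values were adjusted by Benjamini-Hochberg over all genes tested, and a gene was called at an adjusted p below 0.05. Tests were two-sided. Values after ± are standard errors of log2 ratios. Alternatives were DESeq2 1.42.0 (test and size factors), library totals, no filter, the study's criteria, a fit of all 8 libraries, a replicate block and leaving out each library; a crossed block was chosen after seeing the data. The code was tested on simulated data. The members, gene lists and markers were chosen with earlier results of these data known. Genes chosen for closer description were the TIMPs, 8 core enzymes (*Mmp2*, *Mmp9*, *Mmp14*, *Mmp28*, *Adam10*, *Adam17*, *Adamts1* and *Adamts5*), up to 6 called members per direction and comparison with the largest fold change (where the higher group averaged 100 normalized counts or more), the 3 highest members per group by level per kilobase, and likewise 2 pathway genes per direction; other members are given by shorter values. Counting floors cover counting error only. No column of per-sample values was left unused. Promoter sequences came from RefSeq, and motifs were matched on both strands.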

Additional observations from a re-analysis of the deposited data

Results flagged for a closer look

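Of the 54 members, 12 had a log2 ratio of GFP+ to GFP- that differed between P1 and P6 by the interaction test of edgeR (adjusted p below 0.05 over all genes, 2 libraries per group). The P6 ratio exceeded the P1 ratio by 3.64 on the log2 scale for *Mmp28*, 3.56 for *Adam8*, 2.76 for *Adamts20*, 2.26 for *Timp3*, 1.98 for *Adamts4*, 1.70 for *Adamts5*, 1.35 for *Adamts1* and 1.30 for *Mmp15*. The P6 ratio lay below the P1 ratio for *Adamts6* (-1.15), *Adamts19* (-1.46), *Adamts14* (-1.81) and *Adamts2* (-2.10). Without P6 GFP+ replicate 2 the difference was 1.70 for *Adamts20* and 1.69 for *Timp3*, and over all fits without 1 library that for *Adam8* ranged from 3.08 to 4.27. *Mmp28* and *Adamts2* were called whichever of the 8 libraries was left out, *Adam8*, *Mmp15*, *Adamts1* and *Adamts19* in 7 of 8 such fits, *Adamts4* in 5, *Timp3*, *Adamts5* and *Adamts6* in 4, and *Adamts14* and *Adamts20* in 2. The fits that lost a call left out a P1 GFP+ library or a GFP- library. None of the 12 was lost without a P6 GFP+ library, but such a fit lacks the spread between the P6 GFP+ libraries. The largest adjusted p in these fits was 0.189, for *Adamts20* without P6 GFP- replicate 1.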

How the results depend on the processing

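For named genes, 910 of the values under an alternative kept direction and side of the threshold, 155 lost the call, 17 gained it and 8 changed sign; of the counts of called members, 75 stayed within 1.5 times the reported count and 43 did not. With the study's criteria the counts of higher and lower members were 2 and 18 at P1, 5 and 3 at P6, 4 and 0 with age in GFP+ cells, 2 and 0 with age in GFP- cells, and 2 and 1 in the interaction. Without the 3 members that passed the level filter through GFP- libraries alone, 17 were lower at P1, 2 were lower at P6 and 1 rose with age in GFP- cells. Without a filter, 21 members rose with age in GFP+ cells and the interaction gave 18 and 9, and the DESeq2 test gave 14 and 7 for the interaction. In GFP- cells, library totals gave 9 members falling with age, and a fit of all 8 libraries gave 7 rising and 3 falling. Library totals in place of TMM moved the median of all genes by -0.10 at P1, -0.19 with age in GFP- cells and 0.12 in the interaction.

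Leaving out 1 library in turn gave 6 to 15 higher and 29 to 35 lower members at P1, 5 to 8 higher and 7 to 37 lower at P6, 4 to 26 rising and 2 to 16 falling in GFP+ cells, 5 to 17 rising and 1 to 7 falling in GFP- cells, and 3 to 20 higher and 1 to 13 lower in the interaction. In these fits the lone library was assumed to vary like the other group. The cause of these shifts was not tested, apart from the smaller number of libraries.

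Signs changed for 3 genes whose values were near 0, and for *Adamts12*. *Mmp14* at P1 was -0.0534 with library totals and -0.0424 to 0.107 on leaving out a library. *Timp1* with age in GFP- cells was -0.0191 with library totals. *Mmp28* with age in GFP- cells was 0.0125 without a filter, 0.0108 with all 8 libraries and -0.0918 to 0.0315 on leaving out a library. *Adamts12* with age in GFP+ cells, reported as 1.51, ranged from -1.35 (without P6 GFP+ replicate 2) to 2.38.

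Replicate numbers did not pair the samples: deviations of equally numbered libraries correlated at 0.02 at P1, 0.09 at P6, -0.09 between ages in GFP+ and -0.26 in GFP- cells. A replicate block left 3 members falling with age in GFP- cells and moved no other count by over 1.5 times; 15 of the 20 calls there remained. The crossed block, chosen after seeing the data, gave 19 rising and 8 falling. Genes near the floor of 3 counts per library, such as *Mmp13* in P1 GFP+ cells, are limited by depth.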
